A study of Mus musculus with 16 samples.

Results

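The semaphorins, plexins and neuropilins are a family of axon guidance ligands and their receptors, and they were followed here in the hippocampus of mice bred for high or low activity. Members were the genes whose GENCODE M21 symbol is Sema with a class number from 3 to 7 and a letter from a to g, Plxn with a letter from a to d and a number, or Nrp1 or Nrp2. The rule gave 31 members, namely 20 semaphorins, 9 plexins and 2 neuropilins, of the 31960 genes with a count in any library, of which 18915 were protein-coding. Poly-A RNA was sequenced from the hippocampi of 16 mice aged 70 days, with 1 library per mouse. There were 4 High Activity females (libraries 1 to 4), 4 High Activity males (libraries 5 to 8), 4 Low Activity females (libraries 9 to 12) and 4 Low Activity males (libraries 13 to 16). Both strains are inbred and came from selection for locomotion in an open field, and 1 strain stands for each direction of selection, so a difference that followed the selection and one fixed by chance during inbreeding cannot be told apart. The strains differ in coat colour, so dissection was not blind to strain. The comparisons asked which members differed between the strains, whether they did so in each sex, and whether a ligand and its receptor differed together.

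Semaphorins are secreted or membrane-bound proteins that steer growing axons and dendrites and later limit the number and place of synapses. Most act through plexins, single-pass receptors whose cytoplasmic part switches off small GTPases and so changes the actin and microtubule skeleton. Class 3 semaphorins are secreted, and most of them need a neuropilin as the binding subunit beside a plexin of the A group. Classes 4, 5 and 6 span the membrane and bind plexins without a neuropilin, and Sema7a is held by a lipid anchor. In the hippocampus the family is known for the layering and pruning of mossy fibres, the axons of dentate granule cells, and for the placing of spines on granule and pyramidal cells.

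Total counts ran from 20815456 to 28760896 per library. Every member was detected in every library, from 59 counts for Sema3f to 6551 counts for Plxna4, and all 31 passed edgeR's filter on low counts, as did 15128 protein-coding genes in all. The 8 marker genes of hippocampal pyramidal and granule neurons were all present, with a summed level of 924 to 1396 CPM (read counts scaled to the library's total, with TMM factors), and the lowest of them, Spink8, had a mean of 16.2 CPM. Libraries 6 and 8, both High Activity males, had the highest sums of the 9 markers of thalamus and habenula, at 519 and 333 CPM. Libraries 14 and 16, both Low Activity males, followed at 298 and 241 CPM, against 101 to 211 CPM in the other 12, and library 6 had the lowest level of hippocampal neuron markers. Fits without libraries 6 and 8, given below, have only libraries 5 and 7 as High Activity males. They keep libraries 14 and 16, so they do not balance these markers between the male groups. Choroid plexus markers varied most, from 133 CPM in library 9 to 5318 CPM in library 7. RNA was taken from whole tissue, so fewer cells of a type and less RNA per cell cannot be told apart for any value below.

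Sema7a was the most abundant member per length, at 50.8 ± 3.39 CPM per kb of exons (SD, n = 16), followed by Sema6b at 36.0 ± 1.62 CPM per kb. Sema7a signals through Plxnc1 and the integrin subunit Itgb1, and Sema6b is a membrane ligand of plexins of the A group. The next places were held by the receptors Plxna1 at 15.9 ± 2.00, Plxna4 at 13.2 ± 2.25 and Plxnb1 at 11.1 ± 1.497 CPM per kb (SD, n = 16 each). These 5 genes had the same order in all 4 groups. The spreads of Sema7a and Sema6b did not meet, whereas Plxna1, Plxna4 and Plxnb1 lay within their spreads of each other as neighbours. Sema4d, Sema6d, Plxnb2, Sema5a and Sema4f followed at 9.52 to 7.44 CPM per kb, each within 1 SD of the next. Nrp2 and Nrp1 were almost level with each other, at 6.27 ± 0.743 and 6.21 ± 0.783 CPM per kb (SD, n = 16), on exon-union lengths. With the longest transcript as length, Nrp1 was at 16.7 and Nrp2 at 11.04 CPM per kb. Sema7a and Sema6b stayed highest on that length. Nrp1 and Sema4d (16.3) then lay above Plxna1 (16.0), Plxna4 (14.5) and Plxnb1 (12.3 CPM per kb), so the places after Sema6b depend on the length used.

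Secreted ligands sat at the bottom of the order. Sema3a, the classical repulsive ligand of Nrp1, was lowest at 0.342 ± 0.0632 CPM per kb, below Sema3d at 0.756 ± 0.0990, Sema3f at 0.979 ± 0.297, Sema3g at 1.27 ± 0.220 and Sema3b at 1.53 ± 0.521 CPM per kb (SD, n = 16 each). The exceptions among the 7 secreted members were Sema3e at 6.35 ± 0.737 and Sema3c at 3.63 ± 0.512 CPM per kb. The other members lay between 2.31 CPM per kb for Sema4c and 5.62 CPM per kb for Plxna2. Lengths were exon unions in GENCODE M21, and with the longest transcript in their place 8 of the 10 highest members stayed in the first 10. Genes that overlap a member on either strand were at 1.06 CPM (Gm26811, antisense to Plxna1) or less.

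**Figure D1:**
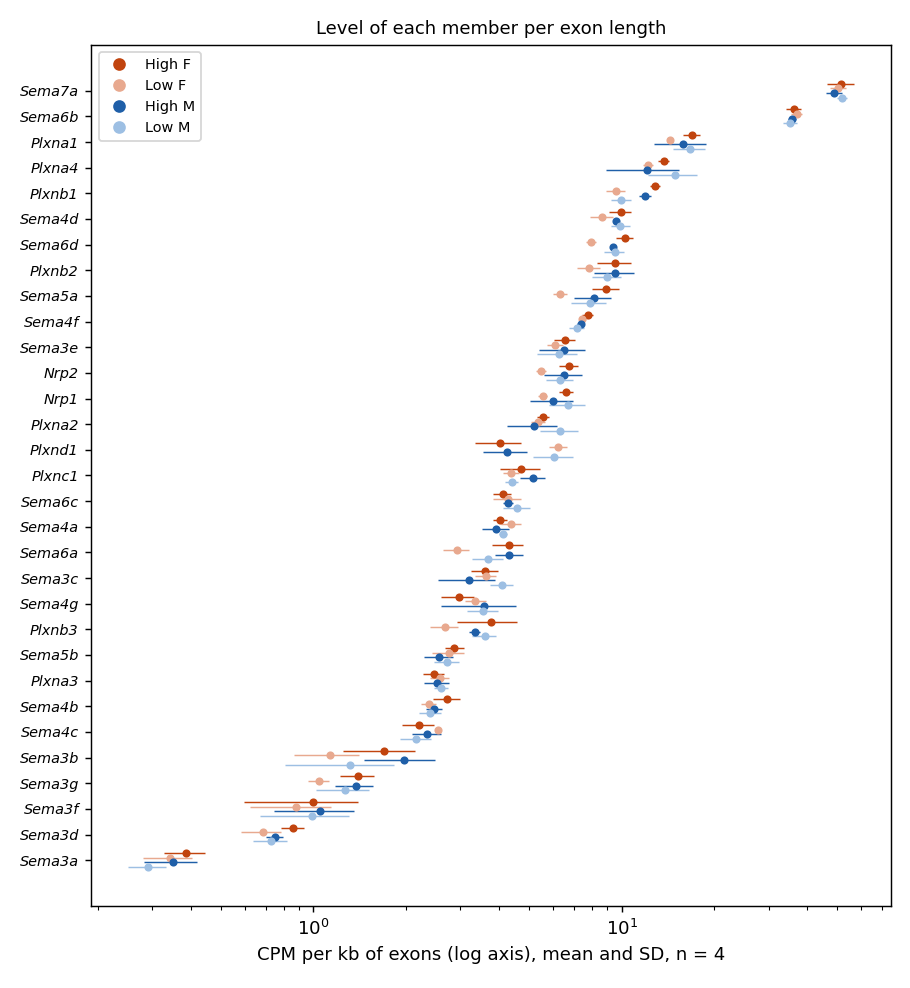
Level of each of the 31 members in CPM per kb of exons on a log axis, with the mean (point) and SD (line) of the 4 libraries of each group. Sema7a and Sema6b stand above all other members in every group, and Sema3a is lowest.

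Any strain effect, the joint test of the strain and the strain by sex terms, was called for 8 of the 31 members (25.8%) at an adjusted p under 0.05, against 15.2% of protein-coding genes and 18.7% of those that passed the filter on low counts. These were the ligands Sema3b, Sema5a, Sema6a and Sema6d, the neuropilin Nrp2, and the plexins Plxnb1, Plxnb3 and Plxnd1. Plxnd1 was lower in High Activity mice, and the called differences of the other 7 were all towards a higher level in High Activity mice. None of the 6 class 4 semaphorins and none of the 4 plexins of the A group was called. With 31 members, a count of 8 is above the background share by few genes, and no test of the list was made.

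**Figure D2:**
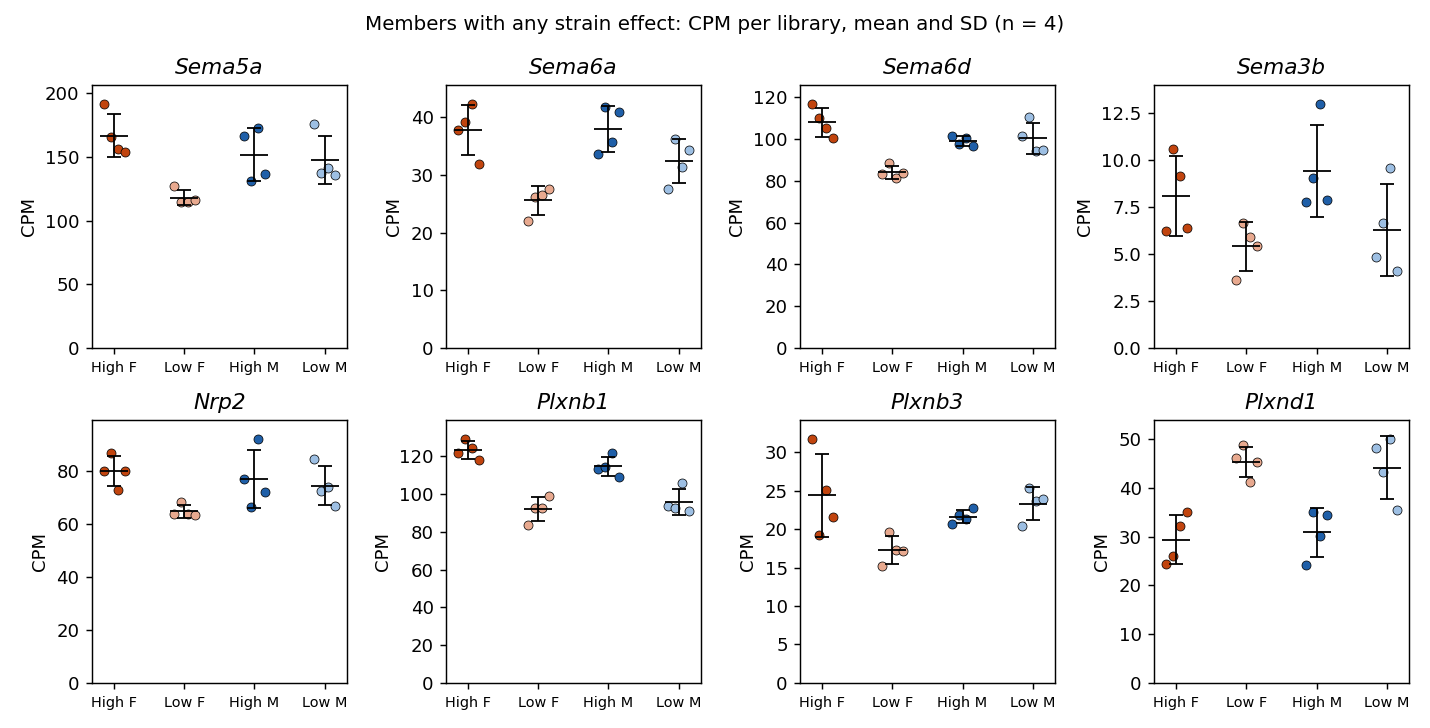
CPM of the 8 members with any strain effect in each library (points), with the mean and SD of each group (bars, n = 4). Plxnb1 is higher and Plxnd1 lower in High Activity mice of both sexes, whereas Sema5a, Sema6d, Plxnb3 and Nrp2 part mainly in females, with Low Activity females lowest.

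Plxnb1 and Plxnd1 were the members that differed in both sexes. Plxnb1, the main neuronal receptor of Sema4d, signals through the exchange factors Arhgef11 and Arhgef12 and lies at chr9:109095389-109119917 on the plus strand (ENSMUSG00000053646, GRCm38). In High Activity females it was at 122, 129, 124 and 118 CPM, and in Low Activity females at 83.7, 92.4, 92.5 and 99.0 CPM. In High Activity males it was at 113, 114, 121 and 109 CPM, and in Low Activity males at 93.6, 92.3, 106 and 91.1 CPM. Every High Activity library was above every Low Activity library of the same sex, with library 15 the closest of the Low Activity libraries. The strain difference was 0.42 ± 0.06 on the log2 scale (SE), or 1.34-fold, in females (edgeR adjusted p = 1.03e-05) and 0.26 ± 0.06, or 1.196-fold, in males (edgeR adjusted p = 0.00454). Both calls were kept under all 25 alternatives run for them, in edgeR, DESeq2 and limma-voom, with adjusted p-values of at most 0.022 in males. The antisense gene Gm7628, which overlaps Plxnb1, had a mean of 0.582 CPM.

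Plxnd1, the receptor that binds Sema3e without a neuropilin and is best known from blood vessels, lies at chr6:115954811-115995005 on the minus strand (ENSMUSG00000030123). It was at 24.3, 26.1, 32.2 and 35.1 CPM in High Activity females against 46.2, 48.8, 41.3 and 45.4 CPM in Low Activity females. High Activity males were at 24.2, 35.1, 30.1 and 34.4 CPM and Low Activity males at 48.1, 43.2, 50.04 and 35.4 CPM. The groups did not overlap in either sex, although library 16 of the Low Activity males came within 1 CPM of library 6 of the High Activity males. Plxnd1 fell by 0.63 on the log2 scale in High Activity females (SE 0.11, edgeR adjusted p = 4.61e-04) and by 0.52 in High Activity males (SE 0.11, edgeR adjusted p = 0.00388), so that it was 1.54-fold and 1.43-fold higher in Low Activity mice. Without libraries 6 and 8 the difference in males was -0.71 (edgeR adjusted p = 1.04e-04). The 8 markers of brain endothelium summed to 302 to 367 CPM in High Activity libraries and 278 to 343 CPM in Low Activity libraries (the lowest and highest library of each). In females 2 of the 8 were called higher and 1 lower, and in males 1 was called higher. Their median strain difference was 0.18 in females and 0.23 in males on the log2 scale. Their part in the difference of Plxnd1 was not tested.

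Upstream sequence is shown for the plexins called in both sexes and, for comparison, for 2 ligands called in females, because these members carry the strain differences described here. The sequences are RefSeq promoter windows on GRCm38.p6, the 250 bases before the start, without the bases that lie inside the GENCODE gene. These are bases of the reference genome, not of the High or Low Activity strain, so they cannot show a difference between the strains. They are written 5′ to 3′ on the gene's strand, and capitals mark each GC box, GGGCGG or its reverse complement CCGCCC. Plxnb1 is at chr9:109095186-109095388 (plus strand), Plxnd1 at chr6:115995006-115995255 (minus strand), Sema5a at chr15:32244563-32244809 (plus strand) and Sema6d, the first of its 2 windows, at chr2:124089719-124089968 (plus strand).
Plxnb1: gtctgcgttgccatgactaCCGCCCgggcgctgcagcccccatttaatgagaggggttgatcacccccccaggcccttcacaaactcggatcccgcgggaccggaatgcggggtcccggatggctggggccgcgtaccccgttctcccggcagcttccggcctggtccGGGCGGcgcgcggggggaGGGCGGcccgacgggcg
Plxnd1: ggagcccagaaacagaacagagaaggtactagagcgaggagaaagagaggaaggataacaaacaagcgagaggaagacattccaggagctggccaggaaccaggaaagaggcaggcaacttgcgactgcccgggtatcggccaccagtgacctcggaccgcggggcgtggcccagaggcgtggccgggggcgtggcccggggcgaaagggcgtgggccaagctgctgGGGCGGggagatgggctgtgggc
Sema5a: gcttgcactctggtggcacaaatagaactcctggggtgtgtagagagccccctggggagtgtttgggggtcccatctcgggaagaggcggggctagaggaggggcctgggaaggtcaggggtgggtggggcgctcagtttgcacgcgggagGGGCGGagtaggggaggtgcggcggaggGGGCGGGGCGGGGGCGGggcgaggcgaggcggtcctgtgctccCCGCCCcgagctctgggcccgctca
Sema6d: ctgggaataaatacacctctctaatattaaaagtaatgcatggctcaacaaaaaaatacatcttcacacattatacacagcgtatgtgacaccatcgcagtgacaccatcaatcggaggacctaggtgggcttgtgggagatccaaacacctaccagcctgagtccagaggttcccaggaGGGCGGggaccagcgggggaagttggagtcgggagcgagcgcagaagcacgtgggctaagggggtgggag

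The stretches held 3 GC boxes in Plxnb1, 1 in Plxnd1, 5 in Sema5a (of which 2 share 1 base) and 1 in Sema6d. Their G and C content was 72.9%, 64.8%, 71.7% and 52.4%. In all, 26 members had an entry, with 37 windows (not Plxna1, Plxna4, Sema3b, Sema3f and Sema6a). A GC box on either strand was in 27 of the 37 windows (73.0%), of 21 members, and in 32.7% of all 32851 windows of the table, which holds genes of every type. A TATA box, TATAAA on either strand, was in 0 of the 37 windows and in 12.4% of all. The CCAAT box, CCAAT on either strand, was in 7 of 37 (18.9%) against 33.8%, the E-box CACGTG in 2 of 37 (5.41%) against 6.02%, and the cyclic AMP element TGACGTCA in 0 of 37 against 1.55%. These counts describe letters in the windows, not binding by a factor.

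In females, 7 members differed between the strains at an adjusted p under 0.05, of which 6 were higher in High Activity mice and 1 was lower. Of protein-coding genes, 10.8% were called in this comparison, 5.6% higher and 5.21% lower. Besides the 2 plexins above, the higher ones were the membrane ligands Sema5a, Sema6a and Sema6d and the receptors Plxnb3 and Nrp2. Of the other 24 members, Sema4d had the smallest adjusted p, with a log2 difference of 0.20 ± 0.06 (edgeR adjusted p = 0.0571). It passed under other settings, among them relative log expression (RLE) factors (edgeR adjusted p = 0.0484), upper-quartile factors (edgeR adjusted p = 0.0388) and DESeq2 (adjusted p = 0.0414). The CPM of the female groups did not overlap for 12 members, 10 higher and 2 lower, against 20.0% of protein-coding genes (9.96% higher and 10% lower).

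Sema5a is a membrane ligand with thrombospondin repeats that binds Plxnb3 and, on adult-born granule cells of the mouse dentate gyrus, limits synapse formation through Plxna2. It was at 191, 166, 156 and 154 CPM in High Activity females and at 127, 115, 114 and 116 CPM in Low Activity females. High Activity males were at 167, 131, 173 and 137 CPM and Low Activity males at 176, 137, 141 and 136 CPM. The female groups stood apart, whereas the male groups overlapped almost fully. The strain difference was 0.50 ± 0.09 (log2, SE), or 1.41-fold, in females (edgeR adjusted p = 2.90e-04) and 0.04 ± 0.09 in males (edgeR adjusted p = 0.884). Libraries 6 and 8 were the low ones among High Activity males. Without them, with libraries 5 and 7 left in that group, the male difference was 0.20 (edgeR adjusted p = 0.208).

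Sema6a, a membrane ligand of Plxna2 and Plxna4 that helps to confine mossy fibres to their layer in mice, lies on chromosome 18. High Activity females were at 37.8, 39.3, 42.2 and 31.9 CPM and Low Activity females at 22.0, 26.2, 26.6 and 27.6 CPM. Males of the High Activity strain were at 33.6, 41.7, 35.7 and 40.9 CPM and those of the Low Activity strain at 27.6, 36.3, 31.4 and 34.4 CPM. Females separated fully, and males overlapped with the High Activity libraries mostly above. The difference was 0.56 ± 0.09 (log2, SE), or 1.48-fold, in females (edgeR adjusted p = 1.49e-04) and 0.23 ± 0.09 in males, which did not pass (edgeR adjusted p = 0.181). Over the mean of the sexes it was 0.39 ± 0.07 (edgeR adjusted p = 8.86e-05). Libraries 6 and 8 were the highest in Sema6a among High Activity males, and libraries 14 and 16 among Low Activity males. The same libraries had the highest sums of thalamus and habenula markers (519, 333, 298 and 241 CPM). The part of these markers in the values of Sema6a in males was not tested.

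Sema6d, a membrane ligand of Plxna1, had the smallest p in females after Plxnb1. Its CPM in High Activity females was 117, 110.0, 105 and 100.3, and in Low Activity females 83.1, 88.4, 81.1 and 83.9. In High Activity males it was 102, 97.8, 100.3 and 96.4, and in Low Activity males 101, 110.5, 94.5 and 94.9. Low Activity females were below every other library, and the other 3 groups shared 1 range. The strain difference was 0.36 ± 0.06 (log2, SE), or 1.28-fold, in females (edgeR adjusted p = 6.55e-05) and -0.02 ± 0.06 in males (edgeR adjusted p = 0.947).

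Plxnb3 is a receptor of Sema5a that is enriched in the oligodendrocyte lineage and lies on the X chromosome (chrX:73757090-73772514). It was at 31.7, 19.3, 25.1 and 21.5 CPM in High Activity females and at 15.2, 19.7, 17.3 and 17.2 CPM in Low Activity females. The male groups were at 20.7, 21.8, 21.4 and 22.8 CPM (High Activity) and 20.4, 25.4, 23.7 and 23.9 CPM (Low Activity). Library 1 was the highest of all 16, and the female groups overlapped through libraries 2 and 10. Its strain difference was 0.49 ± 0.11 (log2, SE), or 1.41-fold, in females (edgeR adjusted p = 0.0042) and -0.11 ± 0.11 in males (edgeR adjusted p = 0.632). Without library 1 the call in females was kept, as it was under all 25 alternatives run for it in edgeR, DESeq2 and limma-voom (adjusted p of at most 0.0259). The 8 markers of mature oligodendrocytes had a median log2 strain difference of 0.21 in females and -0.10 in males, with 1 of 8 called in females and 0 in males, and library 1 had the third highest sum, 9630 CPM. Of the 6 markers of oligodendrocyte precursors, Pdgfra and Vcan were called higher in High Activity females, and the median was 0.19 in females and 0.09 in males. The part of these cells in the difference of Plxnb3 was not tested.

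Nrp2 is the binding receptor of Sema3f and, in mice, takes part in the pruning of mossy fibre collaterals. High Activity females were at 80.3, 87.0, 73.1 and 80.1 CPM and Low Activity females at 64.0, 68.4, 63.9 and 63.4 CPM. Nrp2 in males was at 77.3, 66.7, 92.2 and 72.1 CPM (High Activity) and 84.8, 72.4, 74.3 and 67.0 CPM (Low Activity). Only the female groups were apart. The strain difference was 0.30 ± 0.08 (log2, SE), or 1.23-fold, in females (edgeR adjusted p = 0.0147) and 0.05 ± 0.08 in males (edgeR adjusted p = 0.829). The female call was lost without library 2 (edgeR adjusted p = 0.0537) and with an offset for transcript length and GC content (edgeR adjusted p = 0.0518).

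**Figure D3:**
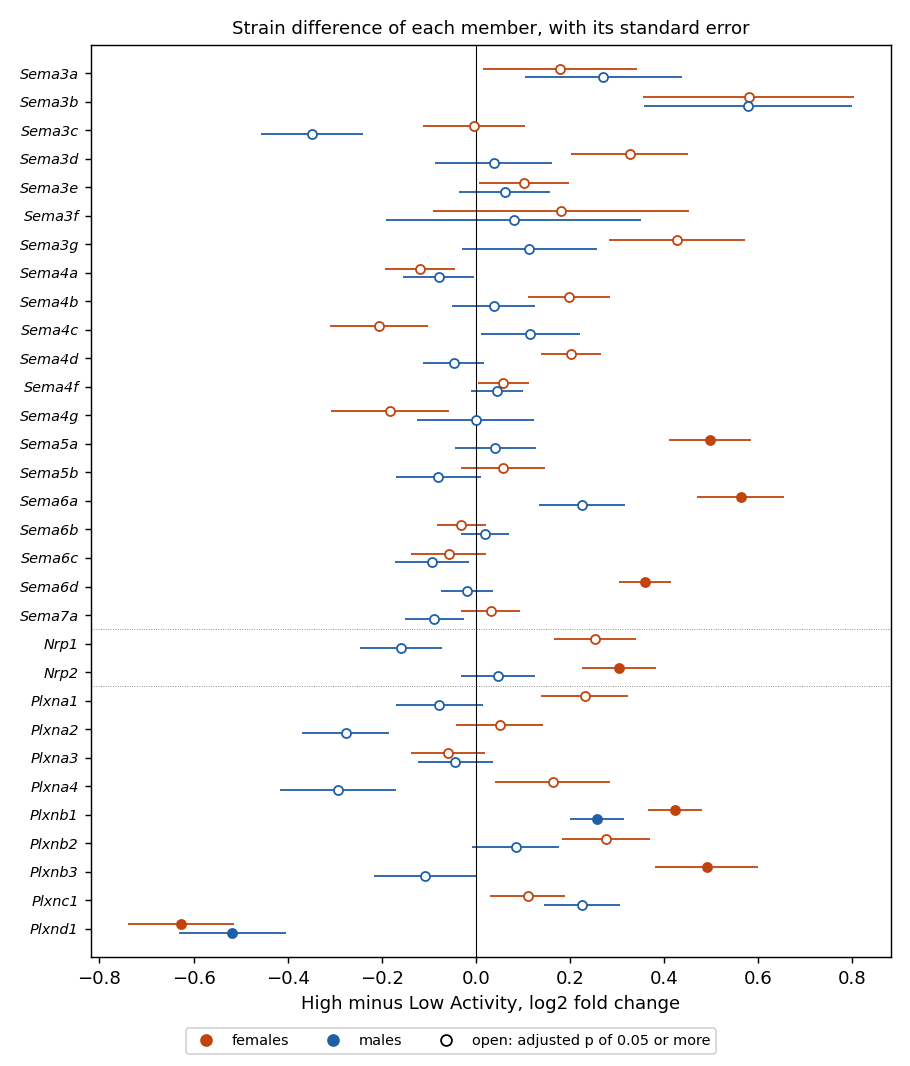
Strain difference (High minus Low Activity, log2 fold change with its standard error) of each member in females and in males. Filled points have an adjusted p under 0.05. Female values lie mostly right of 0 (23 of 31), male values on both sides (16 of 31 right of 0).

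Beyond the calls, the members had a median log2 strain difference of 0.18 in females, where 23 of 31 were above 0, and of 0.02 in males, where 16 were above 0. The male median was -0.04 with 12 above 0 without library 7, -0.01 without library 13 and -0.0060 without library 15. The median over all genes tested was 0.00 in each sex. Members come from long genes, with a median longest transcript of 5930 bases against 3438 bases for protein-coding genes that passed the filter. With an offset for length and GC content, the median of the members was 0.08 in females and 0.04 in males. The female median thus moved more than the male one when length and GC content were modelled. Of the 7 female calls, all but that of Nrp2 were kept under that offset.

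In males, 2 members were called, Plxnb1 higher and Plxnd1 lower in High Activity mice, against 8.67% of protein-coding genes (3.99% higher and 4.68% lower). The male groups did not overlap for 3 members, Plxnb1, Plxnd1 and Plxnc1, against 13.3% of protein-coding genes, and 2 members were apart in the same direction in both sexes, against 5.73%. Plxnc1, the plexin of Sema7a, was at 43.1 ± 3.92 CPM in High Activity males and 36.8 ± 1.76 CPM in Low Activity males (SD, n = 4), a log2 difference of 0.23 ± 0.08 (SE, edgeR adjusted p = 0.107). The secreted ligand Sema3c and the receptors Plxna2 and Plxna4 were the members furthest below 0 in males after Plxnd1, at -0.35 ± 0.11 (edgeR adjusted p = 0.0567), -0.28 ± 0.09 (edgeR adjusted p = 0.0811) and -0.29 ± 0.12 (edgeR adjusted p = 0.202). These values moved when libraries 6 and 8 were left out. In those libraries Plxna4 was at 123 and 140 CPM and Plxna2 at 73.8 and 81.8 CPM, against 168 to 261 CPM and 90.6 to 128 CPM in the other 6 males. Without the pair, the male differences were -0.17 for Sema3c, -0.10 for Plxna2 and 0.0036 for Plxna4. Under other settings these genes passed in males. Sema3c did so without library 5, 7 or 14 and with no composition factors, and Plxna4 without library 5 or 7. Plxna2 did so without library 7 or 16 and with the length and GC offset.

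Over the mean of the sexes, 7 members were called, 6 higher and 1 lower, against 16.5% of protein-coding genes (7.96% higher and 8.57% lower). The call of Nrp2 was lost in 11 of 24 alternatives, limma-voom among them, with an adjusted p of at most 0.0956. Plxnc1, the receptor of Sema7a, did not pass (edgeR adjusted p = 0.0553), but did with RLE factors (edgeR adjusted p = 0.0489), upper-quartile factors (edgeR adjusted p = 0.0438) and filterByExpr (edgeR adjusted p = 0.0478). Plxnb3 dropped out (log2 difference 0.19 ± 0.08, edgeR adjusted p = 0.124) and Sema3b came in. Sema3b, a secreted ligand that binds neuropilins, was at 6.25, 10.6, 9.16 and 6.38 CPM in High Activity females and 3.64, 6.68, 5.93 and 5.42 CPM in Low Activity females. Sema3b was at 7.77, 9.06, 12.96 and 7.86 CPM in High Activity males and 4.85, 6.65, 9.58 and 4.09 CPM in Low Activity males. The groups overlapped in both sexes, and libraries 2, 7 and 15 were the highest of their groups. The mean difference was 0.58 ± 0.16 (log2, SE), or 1.49-fold (edgeR adjusted p = 0.0144), and it was the same in each sex, at 0.58 ± 0.22, with adjusted p-values of 0.135 in females and 0.146 in males (edgeR). Any strain effect for Sema3b had an adjusted p of 0.0447 in edgeR and was lost in 13 of 24 alternatives, whereas the mean difference was kept in all 24.

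Choroid plexus markers moved with Sema3b. Their sum was 1005 to 5318 CPM in High Activity libraries and 133 to 3580 CPM in Low Activity libraries, and the libraries highest in it, 7, 2 and 15, were also the highest in Sema3b, while 9 and 16 were lowest in both. All 8 choroid plexus markers were above 0, with 1 of 8 called in females and 0 in males, and their median log2 strain difference was 0.94 in females and 0.72 in males. Their part in the difference of Sema3b was not tested.

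**Figure D4:**
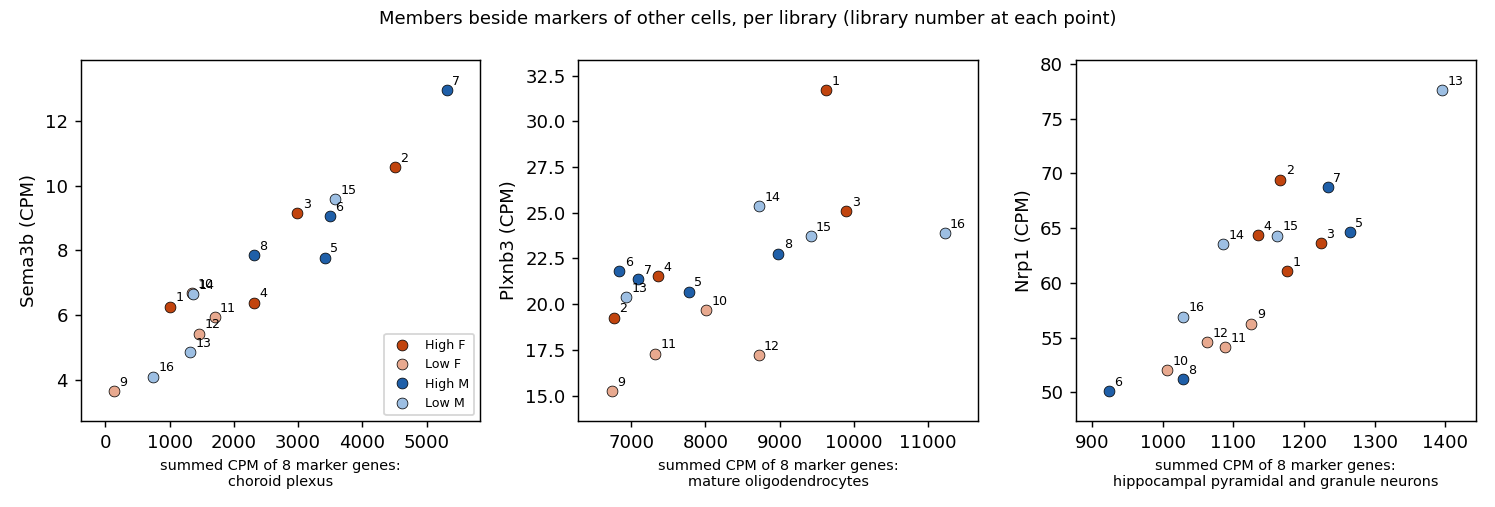
CPM of Sema3b, Plxnb3 and Nrp1 in each of the 16 libraries (numbered points, coloured by group) against the summed CPM of 8 marker genes of choroid plexus, mature oligodendrocytes and hippocampal neurons. Axes do not start at 0. Library 7 is highest and library 9 lowest for both Sema3b and choroid plexus markers, and library 6 is lowest for both Nrp1 and hippocampal neuron markers.

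Whether the strain difference itself differed between the sexes was tested by the interaction. At an adjusted p under 0.05 it was called for 0 of 31 members and for 0.0% of protein-coding genes in edgeR. At an unadjusted p under 0.05 there were 12 members, against 13.9% of protein-coding genes. DESeq2 called 1 member (Sema6d, adjusted p = 0.00632), against 0.793% of protein-coding genes, and limma-voom called 0. In edgeR, Sema6d had an interaction of 0.38 ± 0.08 (log2, female minus male strain difference, SE, edgeR adjusted p = 0.0893), Plxnb3 of 0.60 ± 0.15 (edgeR adjusted p = 0.145), Sema5a of 0.46 ± 0.12 (edgeR adjusted p = 0.158) and Nrp1 of 0.41 ± 0.12 (edgeR adjusted p = 0.215). A strain difference limited to females is therefore not shown for these genes by the main test. Without libraries 6 and 8 the interaction was 0.35 for Sema6d, 0.30 for Sema5a and 0.23 for Nrp1, and 0 members were called. Without library 7 it was called for 3 members, Sema5a, Sema6d and Nrp1, and for 1.04% of protein-coding genes. Without library 5 it was called for Sema6d and for 0.492% of protein-coding genes.

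Nrp1, the binding receptor of Sema3a, is given in full although it was not called, a choice made after its values were seen. It was at 61.0, 69.4, 63.6 and 64.4 CPM in High Activity females, at 56.3, 52.0, 54.1 and 54.6 CPM in Low Activity females, at 64.6, 50.1, 68.7 and 51.2 CPM in High Activity males and at 77.6, 63.5, 64.3 and 56.9 CPM in Low Activity males. The female groups were apart, and the male groups overlapped, with libraries 6 and 8 the lowest of all 16 and library 13 the highest. Library 13 also had the highest sum of hippocampal neuron markers (1396 CPM) and library 6 the lowest (924 CPM). The largest of these markers, Zbtb20, was at 497 CPM in library 13 and 210 CPM in library 6, its own highest and lowest values. It thus weighed heavily in these sums. The part of these markers in the values of Nrp1 was not tested. The strain difference of Nrp1 was 0.25 ± 0.09 in females (edgeR adjusted p = 0.0823) and -0.16 ± 0.09 in males (edgeR adjusted p = 0.381), and without libraries 6 and 8 it was 0.25 (edgeR adjusted p = 0.00908) and 0.02.

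Males were also compared with females within each strain. These comparisons share libraries with those of the strains, so they are not independent of them. In High Activity mice no member was called, against 0.0476% of protein-coding genes, and no member had groups that did not overlap, against 2.3%. Unadjusted p-values were under 0.05 for 2 members in edgeR, against 5.87% of protein-coding genes, and DESeq2 and limma-voom called 0. In Low Activity mice Sema6d was called, 0.25 ± 0.06 higher in males on the log2 scale (SE), or 1.19-fold (edgeR adjusted p = 0.0486), against 0.375% of protein-coding genes (0.222% higher in males). That call was lost in 12 of 24 alternatives, among them limma-voom and the length and GC offset (edgeR adjusted p = 0.302). The groups of Low Activity mice did not overlap for 7 members, 6 higher and 1 lower in males, against 9.6% of protein-coding genes (4.59% higher and 5.0% lower). The higher ones were Sema5a, Sema6a, Sema6d, Nrp1, Plxna1 and Plxnb3, and the lower one was Sema4c, a membrane ligand of Plxnb2, at 8.52 to 11.2 CPM in males and 11.4 to 11.9 CPM in females.

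The median sex difference of the members, male minus female, was 0.10 in Low Activity mice, with 24 of 31 above 0, and -0.06 in High Activity mice, with 10 above 0, against 0.00 for all genes. With the length and GC offset these medians were 0.08, with 19 above 0, and -0.04. When single libraries were left out the Low Activity median ran from 0.07 (without library 15) to 0.16 (without library 10), and the High Activity median from -0.09 (without library 7) to -0.04 (without library 8). Plxnb3 had the largest sex difference in Low Activity mice, 0.43 ± 0.11 (log2, SE), which did not pass (edgeR adjusted p = 0.097). In the same animals the 8 markers of mature oligodendrocytes had a median of 0.22.

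**Figure D5:**
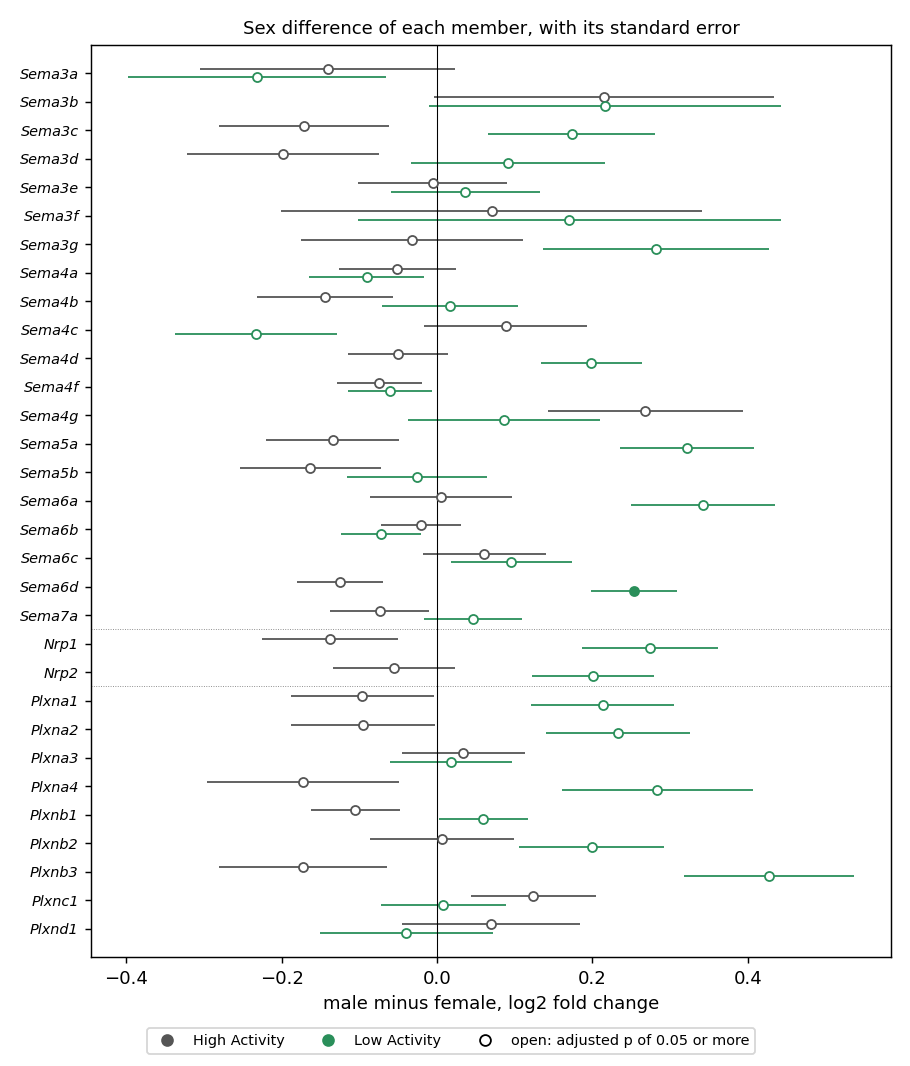
Sex difference (male minus female, log2 fold change with its standard error) of each member in High and in Low Activity mice. The 1 filled point, Sema6d in Low Activity mice, has an adjusted p under 0.05. Low Activity values lie mostly right of 0 (24 of 31), High Activity values mostly left (10 of 31 right of 0).

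Ligands were then set beside their receptors in 27 pairs, taken from general knowledge of the family and from no database. For any strain effect, both partners were called in 2 pairs, the ligand alone in 4, the receptor alone in 7 and neither in 14. Several members, such as Plxnd1, Nrp2 and Plxna4, recur in the pairs, so the pairs are not separate observations. Single members were called at 25.8%, against 15.2% of protein-coding genes, and no expected share of pairs was computed. The first of the 2 was Sema5a with Plxnb3, in which both partners were higher in High Activity females (0.50 and 0.49 on the log2 scale) and neither passed in males (0.04 and -0.11). The second was Sema3b with Nrp2, at 0.58 and 0.30 in females and 0.58 and 0.05 in males, where Sema3b passed only over the mean of the sexes. The calls for any strain effect of this pair were lost in 13 (Sema3b) and 8 (Nrp2) of 24 alternatives.

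Plxnb1 and Plxnd1 were called, while none of their ligands passed in the main test. Plxnb1 was called in both sexes, and its ligand Sema4d occurs at a like level per length (9.52 against 11.1 CPM per kb). Sema4d was at 0.20 ± 0.06 in females and -0.05 ± 0.06 in males. It was not called, though it passed in females under the other settings given above. Library 9, lowest in the sum of mature oligodendrocyte markers (6734 CPM), was also lowest in Sema4d (60.9 CPM). Libraries 16 and 3, highest in that sum (11226 and 9899 CPM), were highest in Sema4d (83.1 and 84.1 CPM). The part of these markers in the values of Sema4d was not tested. Plxnd1 was lower in High Activity mice, and its ligands Sema3e, Sema3c and Sema4a were at 0.10, -0.0045 and -0.12 in females and 0.06, -0.35 and -0.08 in males, none of them called, although Sema3c passed in males with no composition factors (edgeR adjusted p = 0.0392). Plxnb2, the receptor of Sema4c and Sema4g, was at 0.28 ± 0.09 in females (edgeR adjusted p = 0.0729) and 0.08 ± 0.09 in males (edgeR adjusted p = 0.678).

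For Sema6a and Sema6d the ligand was called and the receptor was not. Sema6a was higher in High Activity females, while its receptors Plxna2 and Plxna4 were at 0.05 ± 0.09 and 0.16 ± 0.12 in females and were not called. Sema6d was higher in High Activity females, and its receptor Plxna1 was at 0.23 ± 0.09 (edgeR adjusted p = 0.151), which passed without libraries 6 and 8 (edgeR adjusted p = 0.0092). Sema6b and Sema6c, the other 2 of the class, were at -0.03 ± 0.05 and -0.06 ± 0.08 in females. The pairs of the most abundant ligand, Sema7a with Plxnc1 or Itgb1, had no strain call in the main test, though Plxnc1 passed over the mean of the sexes under the settings above and in males once length and GC were modelled (edgeR adjusted p = 0.0295). Sema7a was at 0.03 ± 0.06 in females and -0.09 ± 0.06 in males.

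The remaining members had no call in the main test. Among the secreted ligands, Sema3g, a ligand of Nrp2, was at 0.43 ± 0.14 in females (edgeR adjusted p = 0.075). Its female groups did not overlap, and it passed in females with filterByExpr, with each sex alone and without library 13. Sema3d was at 0.33 ± 0.12 in females (edgeR adjusted p = 0.125). Sema3a and Sema3f were at 0.18 in females with standard errors of 0.16 and 0.27. The class 4 members other than Sema4d ran from -0.21 (Sema4c) to 0.20 (Sema4b) in females and from -0.08 (Sema4a) to 0.12 (Sema4c) in males. Sema5b was at 0.06 in females and -0.08 in males, and Plxna3, the receptor of Sema3f on the X chromosome, at -0.06 and -0.04.

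Of 62 other genes of the pathway, in 6 lists, 10 had any strain effect (16.1%), close to the background share of 15.2%. In females 6 were higher and 1 lower, and in males 3 were higher and 4 lower. The shares of protein-coding genes were 5.6% higher and 5.21% lower in females, and 3.99% higher and 4.68% lower in males. Among 16 co-receptors of plexins and neuropilins, 3 were higher in High Activity females and 1 of them in males as well. These were L1cam, an adhesion molecule that joins Nrp1 in the receptor of Sema3a (0.45 ± 0.11 in females, edgeR adjusted p = 0.0066, and 0.40 ± 0.11 in males, edgeR adjusted p = 0.019), Cntn2, a contactin of axons (0.41 ± 0.07, edgeR adjusted p = 1.55e-04, and -0.02 ± 0.07 in males), and Flt1, a VEGF receptor that is also 1 of the endothelial markers above (0.60 ± 0.10, edgeR adjusted p = 1.24e-04, and 0.23 ± 0.10 in males, edgeR adjusted p = 0.223). L1cam was at 78.9 ± 12.9 CPM in High Activity females, 57.7 ± 5.08 in Low Activity females, 82.5 ± 15.7 in High Activity males and 62.4 ± 6.26 in males of the Low Activity strain (SD, n = 4 each).

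Of 18 GTPases and regulators that act at plexins, 1 was higher in females and 3 were lower in males. Among protein-coding genes the shares were 5.6% higher in females and 4.68% lower in males. Arhgef11, the exchange factor bound by plexins of the B group, fell by 0.21 in High Activity males (SE 0.06, edgeR adjusted p = 0.0154), as did Rap1a, a substrate of the plexin GAP domain, by 0.24 (SE 0.07, edgeR adjusted p = 0.0268), and Rasa1, a Ras GAP, by 0.20 (SE 0.06, edgeR adjusted p = 0.0343). Arhgap35 was higher in High Activity females by 0.18 ± 0.05 (edgeR adjusted p = 0.026). The MICAL family was taken as the oxidoreductases Mical1, Mical2 and Mical3, which disassemble actin below plexins, and the MICAL-like genes Micall1 and Micall2. It had 1 of 5 members called for any strain effect, Mical2, and a further one, Mical1, only over the mean of the sexes (0.25 ± 0.07, edgeR adjusted p = 0.018). Mical2 was lower in High Activity females by -0.19 ± 0.06 (edgeR adjusted p = 0.0406) and in males by -0.23 ± 0.06 (edgeR adjusted p = 0.013).

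Of the 13 kinases and actin regulators, 2 were higher in females, Rock1 (0.27 ± 0.07, edgeR adjusted p = 0.0221) and Gsk3b (0.16 ± 0.05, edgeR adjusted p = 0.0369), and 1 in males, the Cdk5 activator Cdk5r1 (0.19 ± 0.05, edgeR adjusted p = 0.029). Protein-coding genes called higher were 5.6% in females and 3.99% in males. None of the 5 CRMPs, the tubulin-binding proteins below Sema3a, was called, with Dpysl4 the nearest (-0.18 ± 0.06 in females, edgeR adjusted p = 0.0678). Of 5 VEGF ligands that neuropilins also bind, Vegfb was higher in High Activity males (0.21 ± 0.06, edgeR adjusted p = 0.045) and no other was called in either sex, with Vegfa at -0.03 ± 0.10 in females and -0.10 ± 0.10 in males.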

How the data were processed

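Poly-A RNA from the hippocampi of 16 mice, 4 per strain and sex, had been sequenced in stranded paired-end libraries. The authors trimmed and aligned the reads to mm10 with HISAT2 and estimated expected counts per gene with RSEM; these expected counts were deposited by the authors as whole numbers, without normalization, for the 31960 genes above 0 in any library. The authors tested genes with DESeq2 1.30.1.

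From these counts, CPM (counts scaled to the library's total) with TMM factors and quasi-likelihood F-tests were computed in edgeR 4.0.16 under R 4.3.3, with terms for strain, for sex and for strain by sex over all 16 libraries. No filter on low counts was set. The Benjamini-Hochberg adjustment ran over all 31960 genes, which were called at an adjusted p under 0.05. This adjusted p is written "edgeR adjusted p" throughout. Symbols, exon lengths and coordinates came from GENCODE M21 on GRCm38, in which 61 identifiers were missing. Promoter windows came from RefSeq (GRCm38.p6).

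The members, the 6 pathway lists, the 11 marker lists and the 27 pairs were chosen with earlier results of these data known. Values per library are given for members called in any comparison, and of each pathway list the genes with the smallest p for any strain effect are named.

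Alternatives were RLE, upper-quartile or no composition factors, edgeR's filter on low counts (17805 genes), DESeq2 1.42.0, limma-voom (limma 3.58.1), a correction in each library for GC content and transcript length (an offset from splines of 5 degrees of freedom), each sex alone, and fits without libraries 6 and 8 or without each library. The biological coefficient of variation was 10.6%. The edgeR test was also run on simulated counts, and the outcome is not given here. Libraries are labelled as separate mice of inbred strains, and litters are not given in the sources used here.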

Additional observations from a re-analysis of the deposited data

Results flagged for a closer look

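In each group of 4 libraries, the highest or lowest CPM of a member was set against the other 3 by Dixon's test (gap to the nearest over the range, against the 95% critical value). Of 124 such groups 10 stood out, and chance alone flags about 1 in 20. In Low Activity females, library 9 was low for Sema3f (2.56 CPM, others 5.07 to 5.37) and Plxnc1 (33.4, others 37.5 to 37.9) and high for Sema5b (22.9, others 18.2 to 18.5). It also had the lowest sum of choroid plexus markers (133 CPM). Library 10 of the same group was high for Sema3a (6.02, others 4.24 to 4.40) and Nrp2 (68.4, others 63.4 to 64.0). In Low Activity males, library 13 was high for Sema3e (71.1, others 53.0 to 54.3) and Sema5a (176, others 136 to 141), and library 15 for Sema3d (7.47, others 5.78 to 5.96). Library 13 had the highest sum of hippocampal neuron markers (1396 CPM), of which 497 CPM came from Zbtb20. In High Activity mice, library 6 was high for Sema4a (24.3, others 19.7 to 20.4) and library 1 for Sema4f (43.5, others 40.1 to 40.4). Causes were not tested.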

How the results depend on the processing

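No called value changed sign under any alternative. Any strain effect was called for 6 to 11 members when single libraries were left out and for 12 without libraries 6 and 8 (15.7% of protein-coding genes, 15.2% with all libraries). In females 7 members were called, and 8 with RLE or upper-quartile factors or in DESeq2 (Sema4d in each). With filterByExpr 9 were called (Sema4d and Sema3g besides the 7), and with the length and GC offset 6 (without Nrp2). Without libraries 6 and 8 the count was 11, with each sex alone 14, and without single libraries 7 to 10. The share of protein-coding genes was 10.8% in the main test, 12.5% in DESeq2, 16.3% with filterByExpr and 9.41% with the offset. It was 14% without libraries 6 and 8 and 14.9% with each sex alone. In males the 2 calls became 3 with no composition factors (Sema3c), 4 with the length and GC offset and 2 to 5 without single libraries (4 without library 5, 5 without library 7). The 7 calls over the mean of the sexes became 11 without libraries 6 and 8 (17.3% of protein-coding genes, 16.5% with all libraries), 8 with RLE or upper-quartile factors (Plxnc1) and 6 to 9 without single libraries. The interaction went from 0 to 1 in DESeq2 (0.793% of protein-coding genes) and was 0 to 3 without single libraries (3 without library 7, where 1.04% of protein-coding genes were called). Male minus female in High Activity mice was called for 0 members without any single library. The 1 call in Low Activity mice became 0 with upper-quartile factors, no composition factors, limma-voom or the length and GC offset, 6 without libraries 6 and 8 (2.6% of protein-coding genes, 0.375% with all libraries), and 0 to 2 without single libraries. The causes were not tested, though leaving out libraries also changes the spread that all groups share. Among single genes, the calls of Plxnb1, Plxnd1, Sema5a, Sema6a, Sema6d and Plxnb3 for any strain effect were kept in all 24 alternatives. That of Sema3b was lost in 13 and that of Nrp2 in 8. No paired analysis was possible because the library numbers, 1 to 16, are not shared between groups. At 4 mice per group, differences such as 0.23 in Sema6a of males were not called, and a p above the threshold does not show that values are equal.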
